A study of Mus musculus with 12 samples.

Results

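The cytosolic ribosomal protein genes were described here in whole mouse uteri over the estrous cycle. They were chosen by name alone: protein-coding genes whose symbol is Rpl or Rps with a number and at most 1 further letter, the 3 stalk genes Rplp0, Rplp1 and Rplp2, and Rpsa. This gave 80 genes of 35896 in the data, of which 31 encode proteins of the small subunit, 46 proteins of the large subunit and 3 the stalk. The filter on low counts kept 77 of them among 12052 tested genes. It removed Rpl3l, with 3 counts over all libraries, Rpl39l, with 57, and Rpl10l, with 0. The uteri came from wild-type female Swiss Webster mice, an outbred stock, aged 8 to 12 weeks. Each of the 4 stages of the cycle (proestrus, then estrus, metestrus and diestrus) had 3 uteri, with no treatment named in the labels, and the stage is the only difference between the groups that the labels give. The replicate numbers were 1 to 3 in proestrus, 3 to 5 in estrus and diestrus, and 5 to 7 in metestrus. Polyadenylated RNA was read by 3' TagSeq, which sequences the 3' ends of transcripts.

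A cytosolic ribosome joins a small subunit, which reads the messenger RNA, with a large subunit, which forms the peptide bonds, and most of its proteins are present in a single copy per particle. The genes are among the most highly expressed in any cell, and their transcripts typically begin with a C followed by a run of pyrimidines, the 5' terminal oligopyrimidine motif through which mTORC1 signalling controls their translation. Their transcripts have been reverse transcribed into the genome many times, so that most functional genes are accompanied by processed pseudogenes of similar sequence. In the uterus, estrogen drives growth of the epithelium and RNA and protein synthesis rise with it.

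The start-site sequences are shown because the motif is a known feature of ribosomal protein transcripts, with 3 genes whose annotated start held it and 1 whose did not. In RefSeq promoters of GRCm38.p6, a C at the annotated start followed by at least 4 further pyrimidines (C or T), read on the strand of the gene, was present in 13 of the 60 ribosomal protein genes with a matched promoter (21.7%). The same match was found in 813 of 27025 genes (3.01%) and in 0 of 69 mitochondrial ribosomal protein genes. The windows below hold 20 bases before the start and 10 from it, and capitals mark the motif.
Rps27 at chr3:90213639-90213668, minus strand: acaggatttccgctttcgctCCTTTCCggc
Rps18 at chr17:33955656-33955685, minus strand: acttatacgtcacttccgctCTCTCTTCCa
Rps6 at chr4:86857358-86857387, minus strand: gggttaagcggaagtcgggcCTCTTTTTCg
Rps27l at chr9:66946066-66946095, plus strand: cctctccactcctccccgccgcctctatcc
The window of Rps27l, shown for its first annotated start, has no capitals because these letters did not hold the motif.

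The coding sequences of Rps27 and Rps27l are shown because Rps27l was the gene past the test over the stages and Rps27 is its relative in the family. They are taken from GENCODE M21 transcripts, and capitals mark the bases at which they differ.
Rps27: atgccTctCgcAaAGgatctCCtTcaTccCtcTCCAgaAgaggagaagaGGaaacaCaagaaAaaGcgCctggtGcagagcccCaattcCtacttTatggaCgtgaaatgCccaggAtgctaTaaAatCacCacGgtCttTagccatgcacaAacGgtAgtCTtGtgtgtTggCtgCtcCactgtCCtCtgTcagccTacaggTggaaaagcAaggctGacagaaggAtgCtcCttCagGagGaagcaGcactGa
Rps27l: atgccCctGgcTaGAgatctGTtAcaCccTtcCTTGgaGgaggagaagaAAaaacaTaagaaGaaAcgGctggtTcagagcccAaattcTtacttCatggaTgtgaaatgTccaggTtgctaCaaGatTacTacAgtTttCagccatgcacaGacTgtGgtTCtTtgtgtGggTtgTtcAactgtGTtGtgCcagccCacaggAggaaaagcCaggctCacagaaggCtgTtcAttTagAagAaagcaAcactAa
Over 255 coding bases they differ at 61 (76.1% identical), and none of the 225 runs of 31 bases in the coding sequence of Rps27 occurs in that of Rps27l. Reads of 31 bases or more from the 2 coding sequences can therefore be told apart from each other. This does not cover other genes. Of the last 299 runs of 31 bases in the main transcript of Rps27, 91.6% occur in another gene. For Rps27l it was 29.6% of the last 469.

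A pair with nearly identical coding sequences is Rps18, a small-subunit protein, and its copy Gm10260. Gm10260 is a gene on chromosome 13 (97760072 to 97760632) that GENCODE annotates as protein-coding. Coding bases 312 to 371 of both are given, with capitals at the bases that differ.
Rps18: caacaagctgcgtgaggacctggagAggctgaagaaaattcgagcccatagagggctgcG
Gm10260: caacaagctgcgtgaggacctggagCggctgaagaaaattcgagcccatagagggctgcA
The 2 sequences differ at 4 of 459 coding bases (99.1% identical), and 307 of the 429 runs of 31 bases are shared. For Rpl10, a large-subunit protein, and its copy Rpl10-ps3 the 645 coding bases are identical.

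Libraries held 1652841 to 2200563 estimated counts, so that 3 counts, the limit that a count of 0 allows, correspond to 1.36 to 1.88 CPM (counts scaled to a common library size, here with TMM factors). The labels name separate uterine samples but no litters or collection days, and p-values measure the spread between these samples. Expression was measured in bulk tissue, where fewer cells of a type and less RNA per cell cannot be told apart. Metestrus replicate 7 and diestrus replicate 4 stood apart in the ribosomal protein genes, and results that rest on them are given with and without them.

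The 80 genes together held between 8.49% and 13.4% of all counts in a library. Their summed CPM was 105065, 105640.0 and 93308 in the proestrus uteri, 90227, 94206 and 95064 in estrus, 89902, 105380.0 and 147911 in metestrus and 98898, 123730.0 and 90113 in diestrus. The highest sums lay in metestrus replicate 7 and diestrus replicate 4, and because of these sums, after they were seen, results are also given without those libraries. The other 10 libraries lay between 89902 and 105640 and every pair of stages overlapped. Stage means were 101338 ± 6960 (SD, n = 3) in proestrus, 93166 ± 2581 in estrus, 114398 ± 30038 in metestrus and 104247 ± 17435 in diestrus. Without metestrus replicate 7 the metestrus mean was 97641 ± 10944 (n = 2), and without diestrus replicate 4 the diestrus mean was 94505 ± 6212 (n = 2). On the TPM scale, which divides by transcript length, the 80 genes held 21.9% to 30.7% of the total. The reads came from 3' ends, so dividing by length raises short transcripts. TPM shares and ranks are therefore given as a description and not as abundances.

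**Figure D1:**
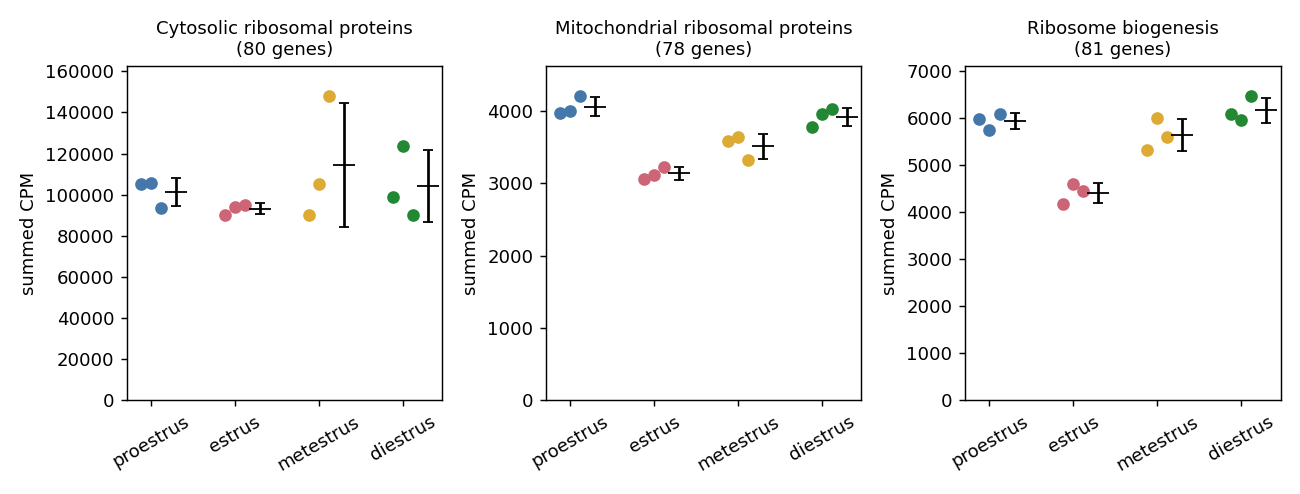
Summed CPM (y axis, from 0) by stage (x axis) for cytosolic ribosomal protein, mitochondrial ribosomal protein and ribosome biogenesis genes. Points are libraries and bars are the mean ± SD of 3 libraries. The cytosolic sums overlap between stages and are highest in single metestrus and diestrus libraries, whereas the estrus libraries are lowest in the other 2 panels.

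The genes moved together from uterus to uterus. Of the 77 tested genes, 69 had their highest CPM in metestrus replicate 7, and 64 had diestrus replicate 4 among their 2 highest libraries. The matching shares of all tested genes are not given here. The median ribosomal protein gene stood at 1.47 times its own median over the 12 libraries in metestrus replicate 7 and at 1.24 times in diestrus replicate 4, against 0.907 to 1.05 times in the other 10. Large-subunit and stalk genes together held 1.60 to 1.72 times the CPM of small-subunit genes in every library, so genes of both subunits were high in the same libraries. Metestrus replicate 7 also had the highest summed CPM of 6 stromal markers (7387, against 4104 to 7055 elsewhere) and of 6 lymphocyte markers (40.2, against 8.99 to 25.0), and ranked 11 of 12 for the sum of 7 epithelial markers (475). Diestrus replicate 4 ranked 8 of 12 for the stromal sum, 3 for lymphocytes and 12 for epithelium. For smooth muscle, neutrophil and skeletal muscle markers metestrus replicate 7 ranked 11, 11 and 12, and diestrus replicate 4 ranked 9, 8 and 2. The epithelial sum was 474 to 656 over the diestrus libraries, so a low one was not particular to the libraries that stood apart. Of the 6 lymphocyte markers, 0 exceeded 3 counts in every library, whereas 6 of 6 stromal markers did, among them the uterine homeobox genes Hoxa10 (90.9 to 393 CPM) and Hoxa11 (12.3 to 110.1 CPM). The part of these cell types in the result was not tested.

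**Figure D2:**
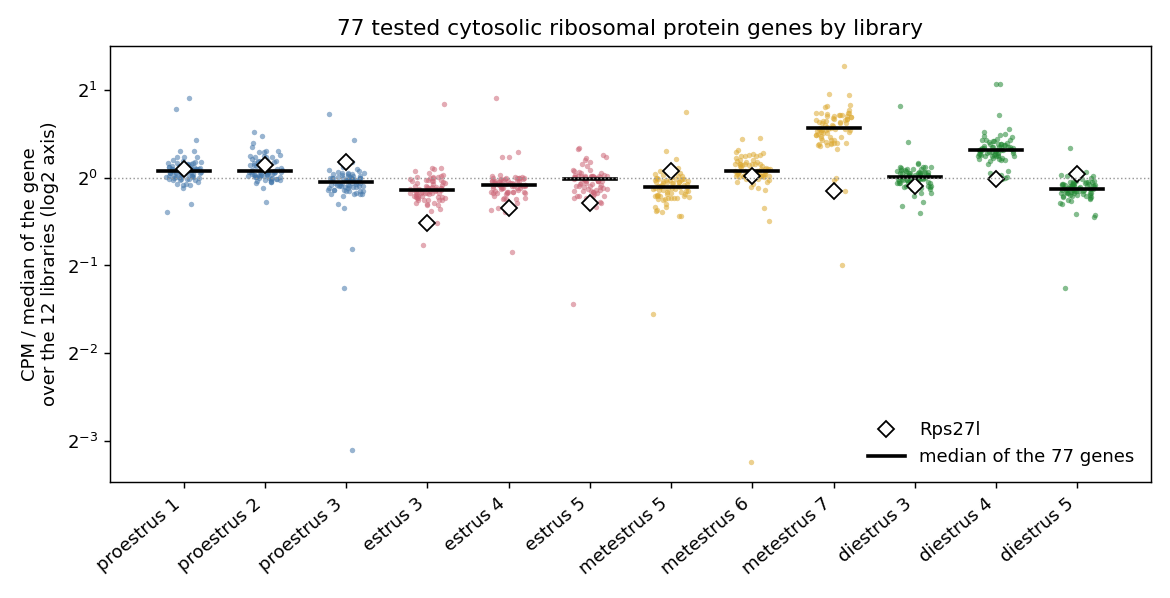
CPM of each of the 77 tested ribosomal protein genes divided by its own median over the 12 libraries (y axis, log2), by library (x axis). Bars mark the median gene, which is 1.47 in metestrus 7 and 1.24 in diestrus 4, and diamonds mark Rps27l, which is low in the 3 estrus libraries.

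Over the 4 stages, 1 of the 77 genes passed edgeR's quasi-likelihood F test (adjusted p under 0.05), against 23.2% of all tested genes. That gene was Rps27l, with an adjusted p of 0.0285. The next smallest adjusted p were 0.161 for Rpl38, 0.177 for Rpl36a and 0.194 for Rpl35a, all of the large subunit. With the summed ribosomal protein counts of each library as the scale, so that a gene is measured against the rest of the family, 0 of 77 passed by edgeR, against 14.2% of all tested genes, and 0 had an unadjusted p under 0.05, against 28.2%.

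Rps27l, a relative of Rps27 that is known as a target of p53, lies on chromosome 9 (66946086 to 66949516, plus strand, GRCm38). Its CPM was 201, 208 and 213 in proestrus, 131, 148 and 154 in estrus, 198, 191 and 169 in metestrus and 176, 185 and 193 in diestrus. The 3 estrus uteri were the lowest of the 12 and did not overlap with any other stage. It fell from proestrus to estrus by 0.52 on the log2 scale (SE 0.12, adjusted p = 0.00955, edgeR) and was higher in diestrus than in estrus by 0.36 (SE 0.12, adjusted p = 0.0431). The fall held when any 1 library was left out (adjusted p 0.0052 to 0.0413, edgeR). The F test lost its call when any proestrus or estrus library was left out (up to an adjusted p of 0.112), with library totals as the scale (0.0531) and with no filter on low counts (0.0577), and the diestrus difference lost it in 9 of 12 fits without 1 library (up to 0.142), with no filter (0.0926), with a replicate block (0.0758) and without metestrus replicate 7 and diestrus replicate 4 (0.0526). Measured against the family total, its F test gave an adjusted p of 0.622, against 0.515 for Rps27 (edgeR). Metestrus replicate 7, the highest library for most of the family, gave the lowest Rps27l value of its stage.

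Rps27, the small-subunit protein itself, had the highest mean TPM of the 80 genes and ranked 9 by mean CPM. Its CPM was 2436, 2362 and 1983 in proestrus, 2162, 2449 and 2594 in estrus, 2469.6, 2492 and 3791 in metestrus and 2336, 2953 and 2062 in diestrus. It was highest in metestrus replicate 7 and diestrus replicate 4, the stages overlapped, and the F test over stages gave an adjusted p of 0.429 (edgeR).

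**Figure D3:**
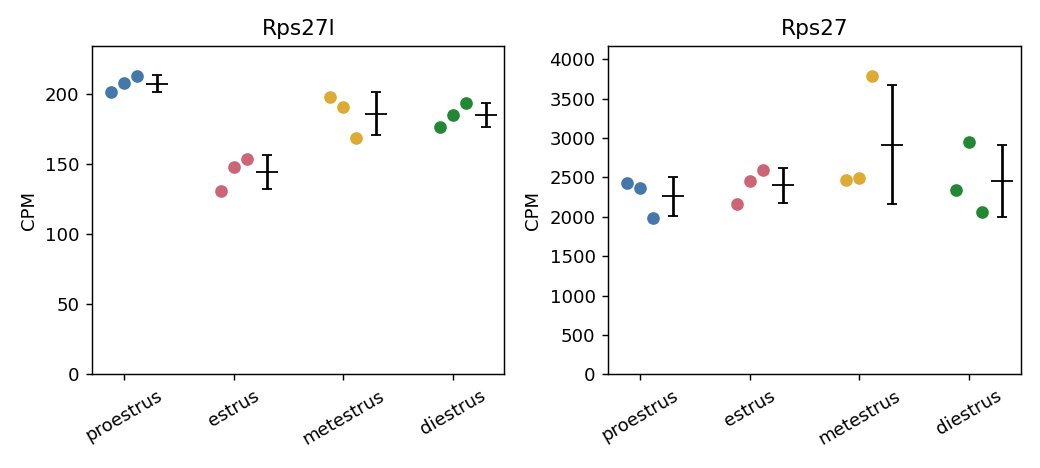
CPM (y axis, from 0) of Rps27l and Rps27 by stage (x axis), with libraries as points and the mean ± SD of 3 libraries as bars. Rps27l is lowest in the 3 estrus libraries (131 to 154) and Rps27 is highest in 1 metestrus library (3791).

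Macrophage markers moved with the estrus contrast: their 4 genes summed to 287 to 315 CPM in estrus and to 116 to 251 in the other stages. Between proestrus and estrus the sums of 2 more of the 12 marker lists did not overlap. The 6 stromal markers summed to 6272 to 6466 CPM in proestrus and 5587 to 6160 in estrus. The 3 markers listed for ciliated oviduct cells summed to 115 to 135 and 68.7 to 78.6. Of these 3, Foxj1 had only 0 to 2.02 CPM over all libraries, Ovgp1 5.40 to 48.5 and Tppp3 23.3 to 270. The 7 epithelial markers overlapped, with 1147 to 1508 in proestrus and 1133 to 1424 in estrus. Between estrus and diestrus the macrophage sums did not overlap, nor did those of 4 more lists. Epithelium had 474 to 656 CPM in diestrus, 5 smooth muscle markers had 6261 to 8271 in estrus and 5391 to 5608 in diestrus, 3 endothelial markers had 1432 to 1970 and 1177 to 1380.4, and ciliated cells had 130.05 to 229 in diestrus. The part of these cell types in the Rps27l differences was not tested.

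Among the remaining small-subunit genes, Rps6, the substrate of ribosomal protein S6 kinase, had CPM of 758, 719 and 656 in proestrus, 587, 474 and 550.1 in estrus, 573, 620.4 and 784 in metestrus and 560.3, 709 and 606 in diestrus. Proestrus and estrus did not overlap, and the log2 difference of -0.40 did not pass (adjusted p = 0.0855, edgeR). Rpsa, the laminin receptor precursor protein that also sits on the small subunit, had CPM of 2545, 2544 and 2442 in proestrus, 1973, 2000.5 and 1934 in estrus, 1799.6, 2789 and 3421 in metestrus and 2251, 2974 and 2126 in diestrus. Its F test gave an adjusted p of 0.342. Rps24, whose transcript is alternatively spliced, had CPM of 1832, 2398 and 1824 in proestrus, 1775, 2154 and 2161 in estrus, 1697, 2183 and 1794 in metestrus and 1951, 1829 and 1527 in diestrus. It differed from most of the family in that metestrus replicate 7 and diestrus replicate 4 were not its highest libraries.

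The large-subunit genes included the 4 with the highest mean CPM: Rpl41 at 3888, Rpl37a at 3466, Rpl37 at 3382 and Rpl13a at 3033. By mean TPM, which is per length, they ranked 3, 5, 15 and 12 of 80. Rpl41, which encodes a very short basic protein, had CPM of 4424, 3808 and 3699 in proestrus, 3313, 3598 and 3756 in estrus, 3210.3, 3973 and 4899 in metestrus and 3795, 4644 and 3540.3 in diestrus. The stages overlapped (F test adjusted p = 0.777, edgeR). Rpl38, a protein known for selective translation of Hox transcripts, had 1236, 1131 and 1083 in proestrus, 885, 969.9 and 1045 in estrus, 1063, 1285 and 1514 in metestrus and 1172, 1308 and 1199.8 in diestrus. Its 3 estrus libraries were the lowest of the 12, and by edgeR neither the F test nor a contrast passed (adjusted p = 0.106 for diestrus against estrus). DESeq2 called it in metestrus against estrus (log2 difference 0.43, adjusted p = 0.0288). Rpl5 and Rpl11, which with 5S RNA bind Mdm2, had adjusted p of 0.849 and 0.702 in the F test.

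The stalk genes encode the acidic proteins that recruit elongation factors. Rplp0 had CPM of 1733, 1850.0 and 2007 in proestrus, 1632, 1503 and 2005 in estrus, 1304, 2113 and 2319.9 in metestrus and 1461, 1808 and 1320.0 in diestrus. Rplp1 and Rplp2 ranged over 1196 to 2293 and 1689.9 to 2802 CPM, with metestrus replicate 7 highest in both. None of the 3 passed the F test (adjusted p 0.558, 0.521 and 0.468, edgeR).

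Relatives that share a name are described beside their partners. Rpl39l had 0.614 to 5.67 CPM and Rpl39 1121 to 2193. Rpl3l was detected in diestrus replicate 5 only, at 1.69 CPM, against 829.7 to 1576 for Rpl3, and Rpl10l had no counts. Rpl7l1, a relative of Rpl7 outside the name rule, had CPM of 121, 114 and 126 in proestrus, 76.8, 89.7 and 79.1 in estrus, 102, 125 and 96.5 in metestrus and 118, 112 and 117 in diestrus. Its estrus values were the 3 lowest, and it fell from proestrus to estrus by 0.55 on the log2 scale (SE 0.13, adjusted p = 0.0116, edgeR). Rpl7 itself changed by 0.06 in that contrast (adjusted p = 0.863, edgeR) and had an F test adjusted p of 0.703. Rpl22l1 and Rpl36al, relatives of Rpl22 and Rpl36a, had F test adjusted p of 0.307 and 0.741. Rps4l, named like Rps4x, is annotated as a transcribed processed pseudogene and is not among the 80 genes.

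Pseudogenes and other copies held a share of the counts. A copy was defined as a gene sharing at least 20% of its own runs of 31 bases with a ribosomal protein gene. There were 713, of which 683 are annotated as processed pseudogenes, 14 as transcribed processed pseudogenes, 1 as an unprocessed pseudogene and 15 as protein-coding, and 77 of the 80 genes had at least 1. By this definition a gene that overlaps a ribosomal protein gene can also count. Fam69a, 1 of the 15, overlaps Rpl5 on chromosome 5 and shares 31.9% of its runs with it. The deposited estimates put 16.0% to 19.1% of the counts of genes and copies into copies, and 49 copies with a mean above 100 counts held 96.1% of those. No counts were assigned to 202 copies. Reads from a gene and an identical copy cannot be told apart, so these values describe the assignment and not the activity of a pseudogene.

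The share differed between genes. In 10 genes more than 50% of the counts lay in copies, and in 33 less than 1%. Rpl10 had a mean of 10.3 CPM, ranking 76 of 80, and 99.6% of the counts of it and its copies lay in copies, mainly Rpl10-ps3 on chromosome 9. With copies added it had 2357 CPM and ranked 14. Rps18 had 8.98 CPM, ranking 77, with 99.4% in copies, mainly Gm10260, and with copies added it had 1419 CPM and ranked 44. Of the last 500 runs of 31 bases in the main transcript of Rpl10, 100% occur in another gene, so reads of Rpl10 and of its copies cannot be told apart there. Other genes above 50% were Rps2 (85.9%), Rps13 (81.0%), Rps26 and Rpl27 (both 74.7%), Rpl34 (69.6%), Rpl30 (67.7%), Rps12 (60.8%) and Rps27a (56.8%). A large shared sequence did not always go with a large share of counts in copies: Rpl36 shares 94.1% of its runs with another gene and had 5.32% of counts in copies, Rpl35 88.8% and 6.78%, Rpl23a 83.0% and 0.329%, Rplp1 75.1% and 19.7%, and Rpl19 58.2% and 0.358%.

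**Figure D4:**
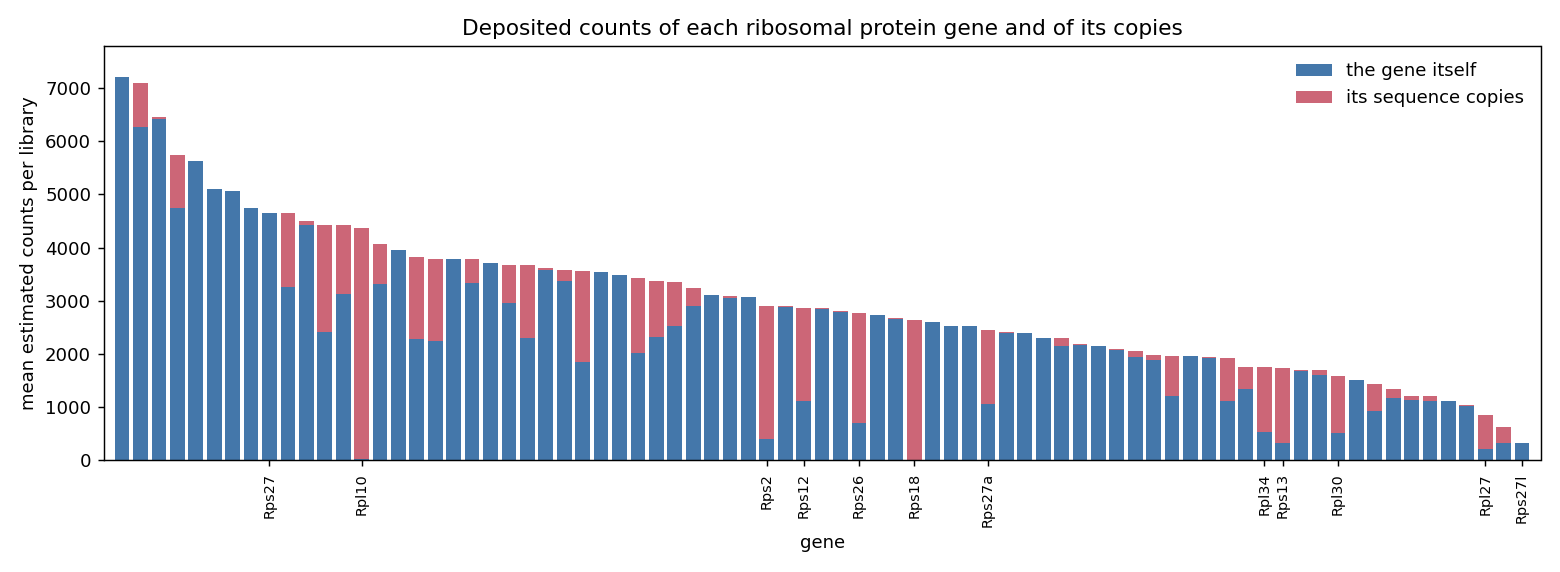
Mean estimated counts per library (y axis, from 0) of the 77 tested ribosomal protein genes (x axis), split into counts assigned to the gene and to its copies. Names are given for Rps27, Rps27l and the genes with more than 50% of counts in copies. Rpl10 and Rps18 are almost wholly in copies, and Rps27 and Rps27l almost wholly in the gene.

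In several genes the split changed from library to library. Rpl26, a large-subunit protein, had CPM of 1032, 545 and 64 in proestrus, 490.1, 1027 and 555 in estrus, 501, 58.3 and 883 in metestrus and 970.1, 635 and 498 in diestrus. With copies added these became 1039, 1001 and 848 in proestrus, 867, 1035 and 1028 in estrus, 955, 1034 and 1637 in metestrus and 984, 1165 and 865 in diestrus. The very low values of proestrus replicate 3 and metestrus replicate 6 were those in which up to 94.4% of the counts lay in copies. The coefficient of variation of Rpl26 over the 12 libraries was 54.7% before and 20.1% after copies were added. It was 42.1% and 17.9% for Rps2, for Rpl21 41.7% and 24.7%, and for Rpl35a 40.6% and 15.7%.

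Adding the copies changed how alike the genes were but not which passed the F test. As a description over 12 libraries that share 1 scaling, the correlation of a gene's log2 CPM with the mean of the other genes had a median of 0.907 and was above 0.9 for 42 of 77 genes. With copies added the median was 0.948 and 63 genes were above 0.9. Genes below 0.7 numbered 12 before and 2 after, and those 2 were Rps27l (0.105) and Rps24 (0.156). Rps18, whose own few counts gave a correlation of -0.52, had 0.98 with copies added. The F test again called 1 of 77 genes, Rps27l (adjusted p = 0.0241, edgeR), against 23.9% of all tested genes in that fit. Measured against the family total with copies added, 1 of 77 genes passed in diestrus against estrus. The share of all tested genes there was 14.1%. That 1 gene was Rpl10 (log2 difference -0.40, adjusted p = 0.0224, edgeR).

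Between single stages the family shifted by small amounts, and the median of 3 of the 6 contrasts changed sign without 1 of the high libraries. The 6 contrasts share libraries and are not independent of each other. From proestrus to estrus the median log2 change was -0.13, against 0.02 for all tested genes, with 66 of 77 estimates lower. By edgeR 1 gene, Rps27l, passed in that contrast, against 17.1% of all genes, and DESeq2 also called Rps6 (log2 change -0.42, adjusted p = 0.0406). In 24 genes all 3 estrus values were below all 3 proestrus values, and this held for 18.1% of all genes. Rps2, a small-subunit protein, had CPM of 254, 189 and 216 in proestrus, 120.4, 114 and 195 in estrus, 178, 279 and 394 in metestrus and 271, 336 and 86 in diestrus, with 1 diestrus library below all others. Its log2 change from proestrus to estrus was the lowest of the family, -0.61 (SE 0.40, adjusted p = 0.325). The highest was that of Rpl35a, a large-subunit protein, at 0.44 (SE 0.33, adjusted p = 0.409), followed by Rpl26 at 0.34 (SE 0.81, adjusted p = 0.819). These extremes depended on the assignment to copies: with copies added the changes were -0.39 for Rps2, -0.02 for Rpl35a and 0.02 for Rpl26.

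Metestrus against estrus had a median log2 difference of 0.30 over the family and 0.01 over all genes, with 74 of 77 estimates higher. By edgeR 0 of 77 passed, against 7.56% of all genes, and 14 had an unadjusted p under 0.05, against 23.4% of all genes. DESeq2 called 2 (Rps27l and Rpl38) and limma-voom 0. In 13 genes the metestrus values all exceeded the estrus values, against 11.1% of all genes. Without metestrus replicate 7 the median was 0.10, and 1 gene, Rps27l, passed, against 7.56% of all genes in that fit. Without metestrus replicate 5, in which the family was low, 9 genes passed, namely Rpl36a, Rpsa, Rpl38, Rpl39, Rpl36, Rps21, Rpl19, Rplp1 and Rpl8. The share of all genes called without metestrus replicate 5 is not given here, so these 9 were not set against it. Rps2 had the largest difference at 0.98 (SE 0.40, adjusted p = 0.150), followed by Rpl21 at 0.94 (SE 0.34, adjusted p = 0.109). Rpl21, of the large subunit, had CPM of 760.3, 758 and 745 in estrus and 1425, 859 and 2044 in metestrus, which did not overlap. The lowest differences were -0.63 for Rps18 and -0.52 for Rpl26 (adjusted p 0.316 and 0.741). With copies added the differences were 0.40 for Rps2, 0.57 for Rpl21, 0.43 for Rps18 and 0.31 for Rpl26, so the last 2 changed sign.

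Diestrus against estrus had a median of 0.18, with 68 of 77 higher, and by edgeR 1 gene, Rps27l, passed, against 22.8% of all genes. Without diestrus replicate 4 the median was 0.07 and 0 genes passed, against 16.5% of all genes in that fit (edgeR). In that fit 1 ribosomal protein gene had an unadjusted p under 0.05, against 3883 of all 12346 tested genes. With all libraries 2 genes, Rps27l and Rpl38, had an unadjusted p under 0.05, against 35.8% of all genes. In 13 genes the libraries did not overlap, all higher in diestrus, against 20.6% of all genes. Rps2 had the largest difference, 0.69 (SE 0.40, adjusted p = 0.234). The lowest were -0.26 for Rps18 and -0.20 for Rps24 (adjusted p 0.646 and 0.418). With copies added the differences were 0.41 for Rps2, 0.31 for Rps18 and -0.19 for Rps24.

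The other 3 contrasts called 0 of 77 genes by edgeR, DESeq2 and limma-voom. Metestrus against proestrus had a median of 0.17, with 4.31% of all genes called. At an unadjusted p under 0.05 it had 2 ribosomal protein genes, against 21% of all genes, Rpl35a (log2 difference 0.93) and Rps18 (-0.85), which became 0.27 and 0.22 with copies added. Without metestrus replicate 7 its median was -0.04. Diestrus against metestrus had a median of -0.12, which became 0.08 without metestrus replicate 7 and -0.02 with library totals as the scale. In this contrast 0.224% of all genes were called. At an unadjusted p under 0.05 it had 0 ribosomal protein genes, against 11.3% of all genes. Its estimates ran from -0.38 for Rpl21 and -0.32 for Rplp0 to 0.38 for Rps18 and 0.54 for Rpl26. With copies added these were -0.28 for Rpl21, -0.21 for Rplp0, -0.11 for Rps18 and -0.27 for Rpl26. Proestrus against diestrus had a median of -0.02, which became 0.09 without diestrus replicate 4, with 8.53% of all genes called. At an unadjusted p under 0.05 it had 0 ribosomal protein genes, against 22.1% of all genes. Its estimates ran from -0.61 for Rpl35a and -0.36 for Rpl26 to 0.28 for Rplp0 and 0.47 for Rps18. With copies added these were -0.04 for Rpl35a, -0.06 for Rpl26, 0.15 for Rplp0 and -0.11 for Rps18.

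Genes of the pathway that makes ribosomes differed between the stages. Of 81 tested ribosome biogenesis genes, 33 passed the F test (40.7%, against 23.2% of all tested genes). From proestrus to estrus 32 fell and 1 rose (40.7% in all, against 17.1%), with a median log2 change of -0.55. Diestrus exceeded estrus in 37 and was below it in 1 (46.9% in all, against 22.8%), with a median of 0.59. Their summed CPM was 4183 to 4600 in the 3 estrus uteri and 5328 to 6466 in the other 9. Nop56, a core protein of box C/D snoRNPs, had CPM of 202, 155 and 189 in proestrus, 55.9, 76.7 and 67.7 in estrus, 124, 159 and 116 in metestrus and 174, 165 and 204 in diestrus. It fell by 1.44 on the log2 scale from proestrus to estrus (SE 0.17, adjusted p = 0.000296, edgeR). Its partner Nop58 fell by 1.22 (SE 0.15, adjusted p = 0.000361, edgeR). Without metestrus replicate 7 and diestrus replicate 4, 35 of the 81 genes passed the F test, against 22.1% of all tested genes in that fit. Without estrus replicate 3 the F test called 20 and the proestrus-to-estrus contrast 18, and without proestrus replicate 3 that contrast called 17. The shares of all genes in the fits without 1 library are not given here, so these counts were not set against them.

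Mitochondrial ribosomal protein genes, which serve the separate ribosome of the mitochondrion, gave 13 of 77 past the F test, a share of 16.9% against 23.2% of all tested genes. From proestrus to estrus 13 passed, all lower, which at 16.9% was near the 17.1% of all genes, and the median log2 change over the 77 was -0.40, against 0.02 over all genes. Their sum was 3059 to 3226 CPM in estrus and 3315 to 4202 in the other stages, and metestrus replicate 7 had the lowest sum outside estrus while it had the highest of the cytosolic genes. Mrpl57 had CPM of 102, 96.3 and 121 in proestrus, 55.9, 52.8 and 61.4 in estrus, 84.5, 73.3 and 55.6 in metestrus and 96.5, 98.6 and 91.6 in diestrus, and fell by 0.91 from proestrus to estrus (SE 0.16, adjusted p = 0.00239, edgeR). The F test count was 7 without diestrus replicate 3 or estrus replicate 4 and 6 without diestrus replicate 5. The proestrus-to-estrus count was 8 without estrus replicate 3 and 5 without proestrus replicate 3. For these fits the shares of all genes are not given here. The difference between these lists and the cytosolic genes was not tested as such.

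**Figure D5:**
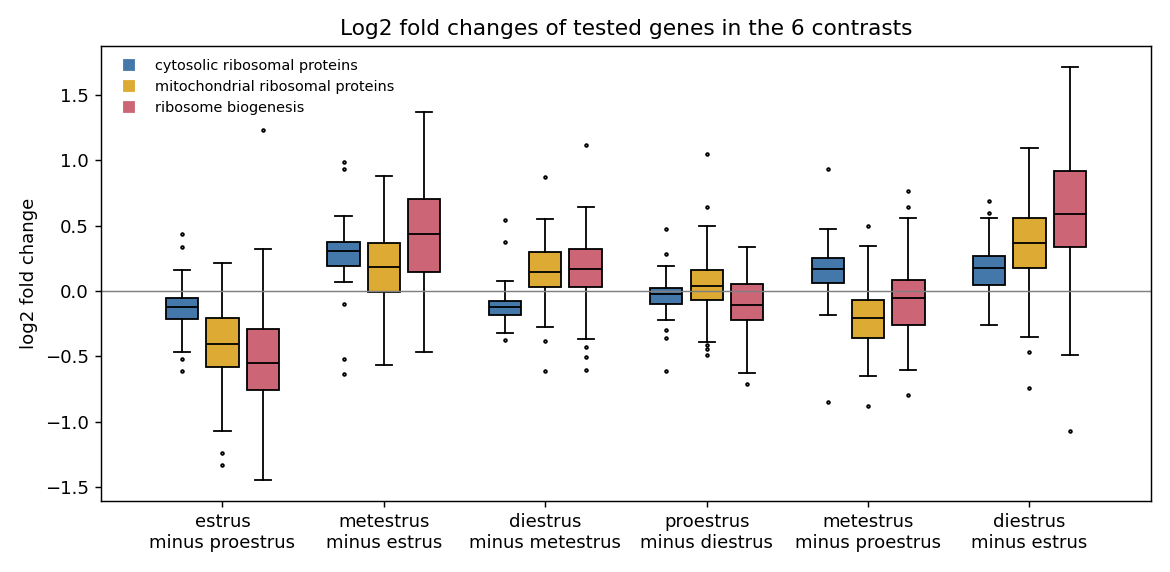
Log2 fold changes (y axis) of tested cytosolic ribosomal protein, mitochondrial ribosomal protein and ribosome biogenesis genes in the 6 contrasts (x axis). Boxes span the quartiles with the median as a line, whiskers reach 1.5 times the box height and dots lie beyond. In estrus minus proestrus the medians are -0.13, -0.40 and -0.55.

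In the other translation lists the shares past the F test were near or below the 23.2% of all tested genes: 21.6% of initiation factors, 14.3% of elongation factors, 6.25% of other terminal oligopyrimidine transcripts, 25.0% of growth and translation regulators and 14.3% of ribosomal proteins outside the name rule. Of 37 initiation factor genes 8 passed the F test (4 to 5 without proestrus replicate 2 or 3, estrus replicate 4 or 5, or diestrus replicate 5), among them Eif1ax and Eif3b, with log2 changes from proestrus to estrus of -0.63 and -0.70 (adjusted p 0.00451 and 0.00453, edgeR). Of 7 elongation factor genes 1 passed, Eif5a, with a log2 change of -0.93 (SE 0.16, adjusted p = 0.00251, edgeR). Of 16 other genes with terminal oligopyrimidine transcripts 1 passed, Hnrnpa1 (-0.87, SE 0.15, adjusted p = 0.00196, edgeR). Of 20 growth and translation regulators 5 passed, and of 7 ribosomal proteins outside the name rule 1, Rpl7l1. For the fits without single libraries, the shares of all genes are not given here.

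The genes outside the family whose log2 CPM followed its mean most closely over the 12 libraries were Eef1a1, the elongation factor that brings aminoacyl-tRNA to the ribosome (r = 0.965), and 4 copies of family genes, Gm10260 (0.962), Rps13-ps1 (0.947), Rpl28-ps1 (0.938) and Gm4332 (0.935). The next 4 that were no copies were Eef1b2, Rps3a1, Hsp90ab1 and Rack1 (0.933 to 0.924). These are descriptions over 12 libraries that share the same scaling.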

How the data were processed

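The authors deposited, for each of 12 uteri, a table of 119414 transcripts with estimated counts, not scaled, and TPM, which divides by effective length, per the file headers. The submitters' processing notes name FastQC, kallisto and DESeq2, and the transcript set and use of strand are not given in the sources used here. Transcripts were matched without version to GENCODE M21 (GRCm38), where 97.7% matched, and the expected counts were summed per gene and rounded. After edgeR's filterByExpr, a quasi-likelihood model with 1 coefficient per stage was fitted to all 12 libraries (edgeR 4.0.16, R 4.3.3, TMM factors 0.907 to 1.05), with Benjamini-Hochberg adjustment over 12052 genes. The biological coefficient of variation was 20.6%. Log2 CPM used a prior count of 2. A gene sharing at least 20% of its 31-base runs with a ribosomal protein gene was called its copy. Without molecular identifiers, detection limits cover counting error only.

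Named were genes past the F test, the 4 highest and 4 lowest by mean CPM, the 2 largest rises and falls per contrast, relatives sharing a name, the 5 sharing most sequence, and at most 2 genes per pathway list. Rps6, Rpsa, Rpl38, Rpl5, Rpl11, Rplp1, Rplp2, and the genes beyond the fifth in likeness were added after their values were seen. The values of 1 gene are not reported here. The genes and lists were chosen with earlier results of these data known. The fit was tested on simulated data in which genes varied independently and changes were larger than the family medians here. That test does not cover a family that moves together. Alternatives were limma-voom (limma 3.58.1), DESeq2 1.42.0, other scalings and filters, counts scaled from TPM, copies added, and each library left out.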

Additional observations from a re-analysis of the deposited data

How the results depend on the processing

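The number of ribosomal protein genes past the F test (1) became 0 with library totals and 2 with no filter, which were Rpl21 and Rpl35a and not Rps27l, and ranged from 0 to 4 when 1 library was left out, with 4 without metestrus replicate 5. For estrus against proestrus (1) it was 2 with library totals or DESeq2, 5 in the fit to those stages alone, and 1 to 2 without single libraries. For metestrus against estrus (0) it was 3 with no filter, 1 with a minimum mean of 50 counts, 2 with DESeq2, and 0 to 9 without single libraries. For metestrus against proestrus (0) it was 1 with no filter and 0 to 1 without single libraries. For diestrus against estrus (1) it was 2 with library totals, 0 with no filter, and 0 to 2 without single libraries. Measured against the family total (0), it was 1 with no filter and 0 to 1 without single libraries. Diestrus against metestrus and proestrus against diestrus stayed at 0 in every fit run. Leaving out metestrus replicate 7 and diestrus replicate 4 together, chosen after seeing the data because their ribosomal protein sums were the highest, gave 2 in the F test, 3 for estrus against proestrus (Rps27l, Rps6 and Rpl12), 1 for metestrus against estrus and 0 for diestrus against estrus. The share of all genes past the F test was 21.8% with library totals and 22.1% without those 2 libraries, against 23.2% with all libraries and TMM factors. For estrus against proestrus it was 15.6% with library totals and 8.64% with DESeq2, against 17.1%. For metestrus against estrus it was 4.21% of 20686 genes with DESeq2, against 7.56% of 12052. Shares for the other fits are not given here, so those counts were not set against them. The cause of the changes in these counts was not tested. With library totals as the scale, the median log2 change of the family was -0.15 for estrus against proestrus and 0.27 for metestrus against estrus. It was -0.02 for diestrus against metestrus and -0.06 for proestrus against diestrus. For metestrus against proestrus it was 0.11, and for diestrus against estrus 0.24.

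Estrus and diestrus share the replicate numbers 3, 4 and 5, but same-numbered samples did not deviate together (correlations -0.04, 0.01 and -0.02), so the numbers were not taken as pairs. With a replicate block 1 gene passed in diestrus against estrus and Rps27l did not, as against Rps27l alone without the block.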
